A study of Arabidopsis thaliana with 16 samples.

Results

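The transcripts of 4 SnRK2 protein kinases (SnRK2.2, SnRK2.3, SnRK2.6 and SnRK2.10) and 5 basic leucine zipper (bZIP) transcription factors (ABF1, ABF2, ABF3, ABF4 and ABI5) were followed in Arabidopsis leaves. These 9 genes are a list of loci taken from 27827 genes on the array, drawn up with earlier results of these data known, and all 9 were measured. Abscisic acid (ABA), the hormone of water deficit, is bound by PYR/PYL receptors, which then hold back the clade A protein phosphatases (PP2C). SnRK2 kinases released from these phosphatases phosphorylate ion channels of guard cells and the ABF and ABI5 factors, which bind ABA-responsive elements in promoters of protective genes. Much of this control acts on the proteins, which an array does not measure.

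RNA was taken from leaves of Arabidopsis thaliana Col-0 and hybridized to 16 Affymetrix AraGene-1_0-st arrays, 4 per group. The groups were wild type after 10 days of drought, watered amiNaa10, watered amiNaa15 and watered wild type, which is the control here. All plants were raised on soil for 6 weeks in short days according to the labels. The study's methods put the 10 days of drought after such a period and give the watered plants more than 6 weeks. The age at sampling therefore differs between these sources. In amiNaa10 and amiNaa15 plants an artificial microRNA under the CaMV35S promoter is directed against NAA10, the catalytic subunit, or NAA15, the auxiliary subunit, of the N-terminal acetyltransferase NatA. For the transcriptome the study names 1 transgenic line of each construct, so that line and knock-down cannot be told apart on these arrays, and no droughted mutant was among the groups. The labels call the replicates biological. They do not say how many plants gave an array, and the number of arrays limits the precision. In bulk leaf RNA, fewer cells of a type and less RNA per cell cannot be told apart.

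The values are log2 signals after RMA background correction and quantile normalization, so that all 16 arrays hold the same set of values and a shift of all genes in 1 direction had been removed. Arrays of a group correlated across genes at 0.971 to 0.991. The 4 mesophyll markers examined (such as RBCS1A, a subunit of Rubisco) averaged 10.6 to 11.3 on every array. All 4 changed below 0 in drought, by -0.67 to -0.07, and 1 of them, CAB1, was called lower (-0.67). RBCS1A gave the same 13.39 on every array of amiNaa10, amiNaa15 and the control. Whether it had reached a ceiling was not tested. Markers of seeds averaged 3.36 to 3.92, and markers of root hairs 2.3 to 2.9. The targeted genes went against the label of 2 arrays. On the arrays that carry the label amiNaa15, NAA10 gave 5.16 and 5.06 for replicates 1 and 2 and 6.89 and 6.86 for replicates 3 and 4, beside 4.92 to 5.28 in amiNaa10 and 6.58 to 6.88 in the control. NAA15 gave 9.68 and 9.54 on replicates 1 and 2 of that label, 7.97 and 7.80 on replicates 3 and 4, 9.46 to 9.87 in amiNaa10 and 8.996 to 9.20 in the control. The group is therefore called the arrays labelled amiNaa15. Calls of the 9 genes, and of the pathway lists against the control, are given with and without the arrays in question. The order of the groups, the overlap of arrays and the correlations use all 4 arrays of that label.

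A gene was called when its change exceeded 1.5-fold at an adjusted p below 0.05 (limma, 1 mean per group over all 16 arrays, Benjamini-Hochberg adjustment over all 27827 genes). Changes are differences of mean log2 signal, given with the standard error (SE) or the 95% interval. The signals of different genes come from different probes and are not set against each other. How many of all genes lack overlap between 2 groups was not counted. Statements on overlap therefore describe single genes and are not set against a share of all genes.

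**Figure D1:**
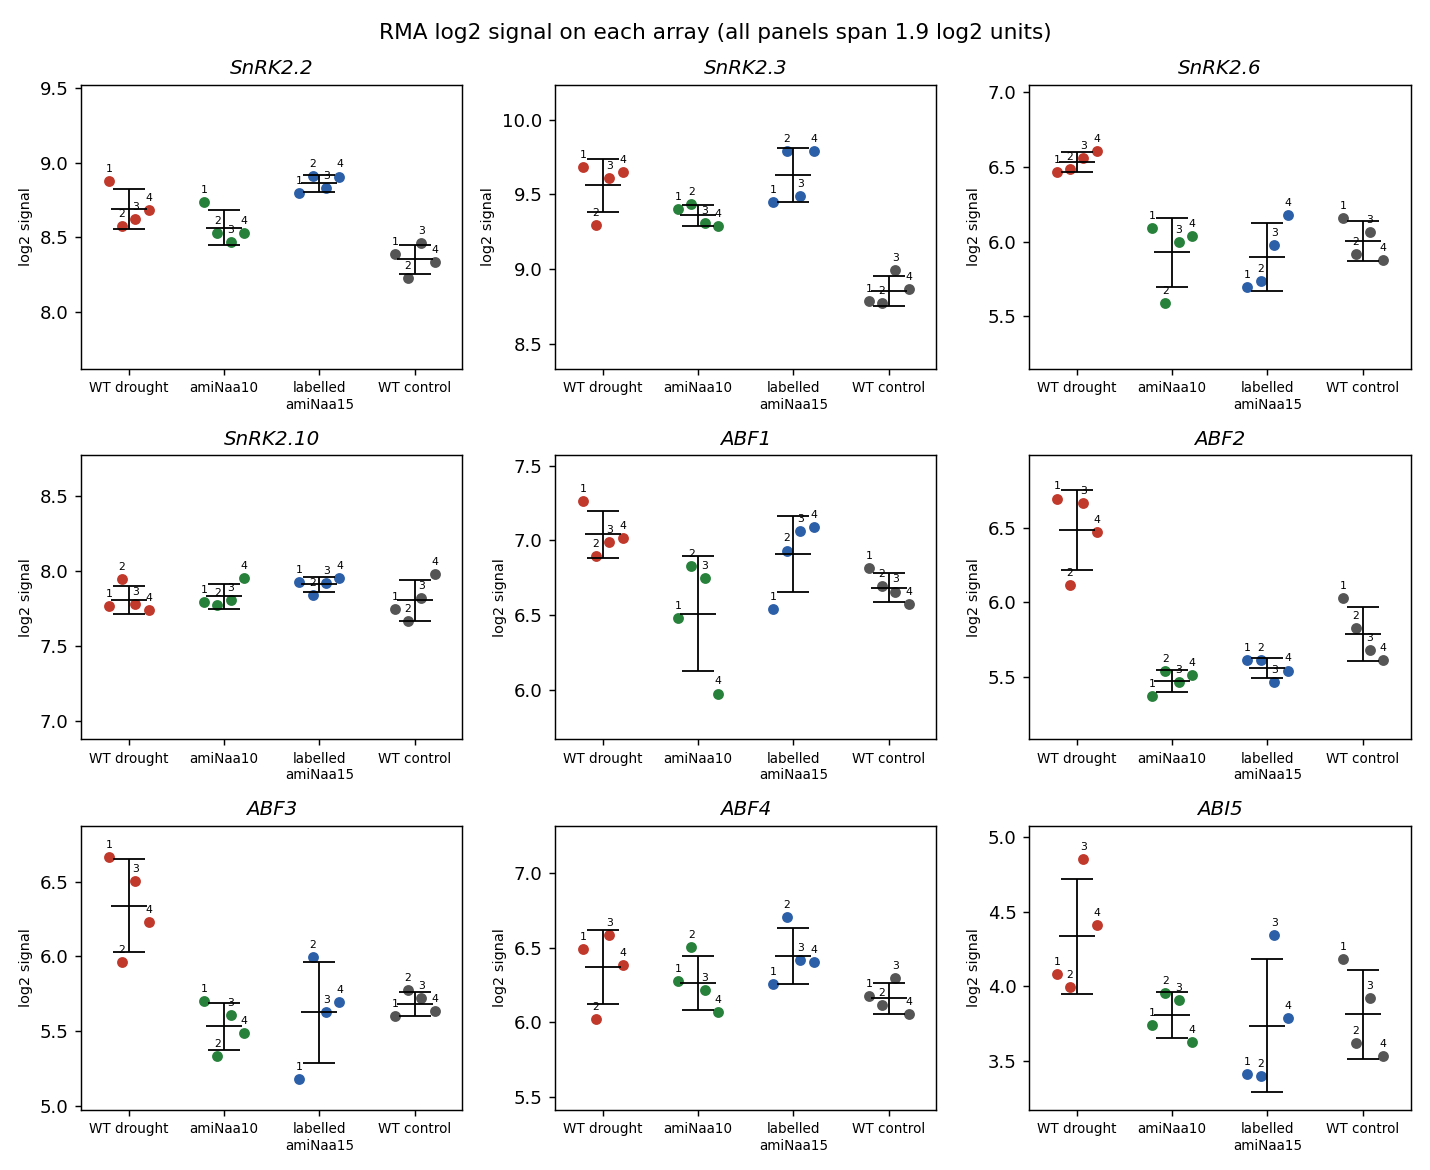
Log2 signal of the 9 genes on each array (points, numbered by replicate) in droughted wild type, amiNaa10, arrays labelled amiNaa15 and watered wild type, with group mean and SD (bars, n = 4). All 4 drought arrays lie above all 4 control arrays for SnRK2.2, SnRK2.3, SnRK2.6, ABF1, ABF2 and ABF3, while SnRK2.3 lies above the control in every group.

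In drought, the transcripts of 1 kinase and 2 factors passed the call. SnRK2.3, ABF2 and ABF3 were called higher in droughted than in watered wild type, 3 of 9 genes, and none of the 9 was called lower. Over all genes, 13.4% were called in this comparison and 6.27% were called higher. With no minimum fold change, SnRK2.2 and SnRK2.6 also passed, which makes 5 of 9 genes beside 24.7% of all genes. The mean of all 9 genes lay above that of the control, with a median change of 0.52 beside 0.03 over all genes.

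SnRK2.3 (AT5G66880), a kinase activated by ABA and known from seed germination and seedling growth, was higher in all groups than in the control. Its log2 signals were 9.69, 9.29, 9.61 and 9.65 on the drought arrays, 9.40, 9.44, 9.31 and 9.29 in amiNaa10, 9.45, 9.79, 9.49 and 9.79 with the label amiNaa15, and 8.78, 8.78, 8.99 and 8.87 in the control. Each of the 12 arrays outside the control exceeded every control array, and the 3 groups overlapped one another in part, except that every array labelled amiNaa15 exceeded every amiNaa10 array. The change in drought was 0.70 (SE 0.113, limma adjusted p = 0.000398), a 1.63-fold higher signal with a 95% interval of 1.38 to 1.92. The call was kept whichever of the 16 arrays was left out, with changes of 0.66 to 0.79.

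SnRK2.2 (AT3G50500), the close relative with which SnRK2.3 acts redundantly, showed the same order of groups. The signals were 8.88, 8.58, 8.62 and 8.68 in drought, 8.73, 8.53, 8.46 and 8.53 in amiNaa10, 8.79, 8.91, 8.83 and 8.91 with the label amiNaa15, and 8.39, 8.23, 8.46 and 8.33 in the control. Every control array lay below every other array, although the lowest amiNaa10 array and the highest control array both rounded to 8.46. The drought change of 0.34 (SE 0.0956, limma adjusted p = 0.0169) was 1.26-fold and stayed under the minimum fold. Its adjusted p was 0.0641 without drought replicate 1 and 0.0540 without control replicate 2. How far the probes separate these close relatives was not tested. The counts among the 9 genes include both, although their changes may not be independent.

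SnRK2.6 (AT4G33950), also called OST1, is the kinase through which ABA closes stomata. It gave 6.47, 6.49, 6.56 and 6.61 in drought, 6.09, 5.59, 6.00 and 6.04 in amiNaa10, 5.70, 5.74, 5.97 and 6.18 with the label amiNaa15, and 6.16, 5.92, 6.06 and 5.88 in the control. Only the drought arrays stood apart, above all 12 others, and the other 3 groups overlapped. The drought change was 0.53 (SE 0.130, limma adjusted p = 0.00740), 1.44-fold with an interval of 1.19 to 1.74, below the 1.5-fold minimum. A list of 6 guard cell markers (FAMA, MYB60, KAT1, GORK, SLAC1 and ALMT12) averaged 6.25 to 6.77 on the drought arrays, 5.63 to 6.21 in amiNaa10, 5.62 to 6.50 with the label amiNaa15 and 6.27 to 6.61 in the control. Of the 6, the potassium channel gene GORK was called higher in drought (0.78) and none was called in the mutants over all 4 arrays of a group. In drought 3 of the 6 lay above 0, with changes from -0.54 to 0.78 and a median of -0.05. The medians of the 6 were -0.34 in amiNaa10 and -0.43 with the label amiNaa15. The part of guard cell number in the SnRK2.6 signal was not tested.

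SnRK2.10 (AT1G60940) belongs to the SnRK2 kinases that osmotic stress activates without ABA. Its signals were 7.77, 7.95, 7.78 and 7.74 in drought, 7.79, 7.77, 7.81 and 7.95 in amiNaa10, 7.93, 7.84, 7.92 and 7.96 with the label amiNaa15, and 7.75, 7.67, 7.82 and 7.98 in the control. All 12 other arrays lay inside the range of the control. The drought change had a 95% interval of -0.19 to 0.20 (limma adjusted p = 0.979), so that a change above 1.15-fold in either direction lay outside it.

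Among the factors, ABF2 (AT1G45249), also known as AREB1 and a main regulator of ABA-dependent genes under drought, had the clearest separation of drought from the other groups. The signals were 6.69, 6.12, 6.66 and 6.47 in drought, 5.37, 5.54, 5.46 and 5.51 in amiNaa10, 5.61, 5.61, 5.47 and 5.54 with the label amiNaa15, and 6.03, 5.83, 5.68 and 5.62 in the control. The lowest drought array lay above the highest control array, and every array of both mutants lay below the lowest control array, at the closest 5.61 on an array labelled amiNaa15 against 5.62 in the control. In drought ABF2 rose by 0.70 (SE 0.126, limma adjusted p = 0.000942), 1.62-fold with an interval of 1.35 to 1.95, and was called with each array left out.

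ABF3 (AT4G34000), which acts with ABF2 and ABF4 in leaves under drought, gave 6.67, 5.97, 6.50 and 6.23 in drought, 5.70, 5.34, 5.61 and 5.49 in amiNaa10, 5.18, 6.00, 5.63 and 5.69 with the label amiNaa15, and 5.60, 5.78, 5.72 and 5.63 in the control. The drought arrays spread over 0.70 log2 units and the arrays labelled amiNaa15 over 0.82, beside 0.17 in the control. ABF3 rose by 0.66 in drought (SE 0.167, limma adjusted p = 0.00897), 1.58-fold. Without drought replicate 1 the change was 0.55 and the call was lost.

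ABF4 (AT3G19290), also known as AREB2, did not pass in any comparison. It gave 6.49, 6.02, 6.59 and 6.38 in drought, 6.27, 6.50, 6.22 and 6.07 in amiNaa10, 6.26, 6.71, 6.42 and 6.40 with the label amiNaa15, and 6.18, 6.12, 6.30 and 6.05 in the control. Drought replicate 2 lay below every control array and the other 3 drought arrays above them. The drought change was 0.21 (95% interval -0.08 to 0.50, limma adjusted p = 0.296).

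ABF1 (AT1G49720), a factor of the same group, gave 7.26, 6.90, 6.99 and 7.01 in drought, 6.48, 6.83, 6.75 and 5.97 in amiNaa10, 6.54, 6.93, 7.06 and 7.09 with the label amiNaa15, and 6.81, 6.69, 6.66 and 6.58 in the control. All drought arrays exceeded the control, and the spread was widest in amiNaa10, with an SD of 0.386 beside 0.0981 in the control. The drought change of 0.36 did not pass (95% interval -0.0027 to 0.71, limma adjusted p = 0.144).

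ABI5 (AT2G36270) is known mainly from seeds and germinating seedlings. It gave 4.08, 4.00, 4.85 and 4.41 in drought, 3.74, 3.95, 3.91 and 3.63 in amiNaa10, 3.41, 3.40, 4.35 and 3.79 with the label amiNaa15, and 4.18, 3.62, 3.92 and 3.53 in the control. The groups overlapped apart from drought and amiNaa10. The drought change of 0.52 was uncertain (95% interval 0.05 to 0.99, limma adjusted p = 0.0995). Detection calls were not used here, and whether this signal exceeds background was not tested.

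Drought replicate 2 was the lowest drought array for 7 of the 9 genes, all but SnRK2.6 and SnRK2.10. This array did not stand apart over all genes, with a mean correlation of 0.986 with the other drought arrays, and leaving it out changed no call of the 9 genes against the control.

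**Figure D2:**
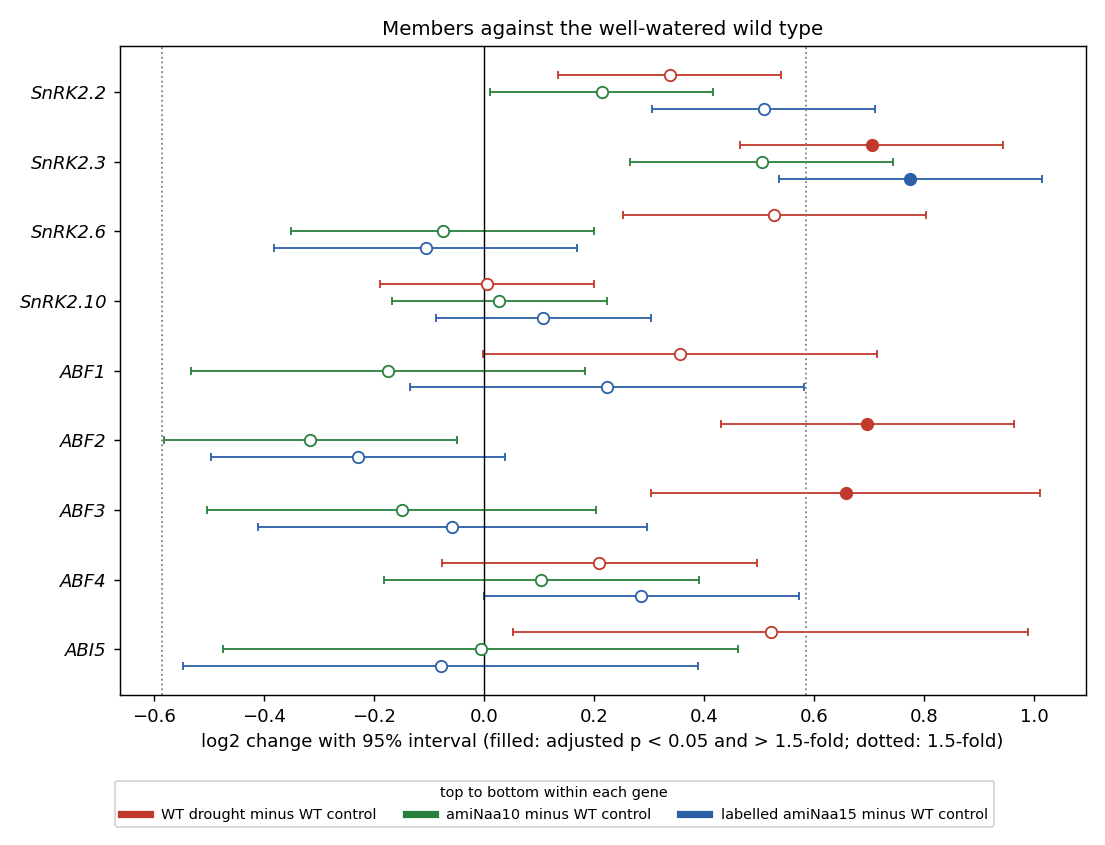
Log2 change (x axis) with 95% interval of each gene (y axis) in drought, amiNaa10 and the arrays labelled amiNaa15, each against the 4 watered wild type arrays. SnRK2.2 and SnRK2.3 lie right of 0 in all 3 comparisons, while SnRK2.6, ABF2 and ABF3 lie right of 0 in drought and left of it in both mutants, where their changes did not pass.

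The mutants were compared with the same 4 control arrays, which all 3 comparisons share. In amiNaa10, 0 of 9 genes were called by limma at the adjusted p, beside 5.37% of all genes. At an unadjusted p below 0.05 with the same minimum fold it called 0 of 9, beside 8.62% of all genes. With no minimum fold change 1 of 9 passed, SnRK2.3, beside 8.04% of all genes. SnRK2.3 changed by 0.50 (SE 0.113, limma adjusted p = 0.0162), 1.42-fold with an interval of 1.20 to 1.67, and its adjusted p was 0.0570 without amiNaa10 replicate 2. SnRK2.2 changed by 0.21 (95% interval 0.01 to 0.42, limma adjusted p = 0.182). ABF2 changed by -0.32 (95% interval -0.58 to -0.05), with all 4 amiNaa10 arrays below the control arrays, and did not pass (limma adjusted p = 0.133). The remaining 6 genes changed by -0.17 (ABF1) to 0.10 (ABF4), none with an adjusted p below 0.58, and the median over the 9 was -0.0060 beside 0.02 over all genes.

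On the arrays labelled amiNaa15, 1 of 9 genes was called, SnRK2.3, beside 4.67% of all genes. It was higher by 0.77 (SE 0.113, limma adjusted p = 0.00135), 1.71-fold with an interval of 1.45 to 2.02. The call was kept without replicates 1 and 2 of that label (0.78, limma adjusted p = 0.0287), where 0.388% of all genes were called, and without replicates 3 and 4 (0.76, limma adjusted p = 0.00580), where 7.36% were called. With no minimum fold change 2 of 9 passed, beside 7.54% of all genes, since SnRK2.2 was higher by 0.51 (SE 0.0956, limma adjusted p = 0.00596). Its change was 0.51 without replicates 1 and 2, where the adjusted p was 0.0910, and 0.50 without replicates 3 and 4, where it was 0.0246.

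The other 7 genes did not pass on the arrays labelled amiNaa15. ABF4 changed by 0.29 (95% interval -0.00042 to 0.57) and ABF1 by 0.22, while ABF2 changed by -0.23 (95% interval -0.50 to 0.04, limma adjusted p = 0.287). SnRK2.6, SnRK2.10, ABF3 and ABI5 changed by -0.11 to 0.11. The sign of some of these small changes depended on the arrays in question. Without replicates 1 and 2, SnRK2.6 changed by 0.07 and ABI5 by 0.25, and without replicates 3 and 4 they changed by -0.29 and -0.41. ABF1, ABF2 and ABF4 changed by 0.39, -0.28 and 0.25 without replicates 1 and 2. Without replicates 3 and 4 they changed by 0.05, -0.18 and 0.32. SnRK2.10 changed by 0.14 and 0.08 in these 2 settings, and ABF3 by -0.02 and -0.09. None of the 7 genes passed in either setting. On these 4 arrays ABF1 was lowest on replicate 1 (6.54), as were ABF3 and ABF4 (5.18 and 6.26).

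Set directly against amiNaa10, drought had 3 of 9 genes called higher, SnRK2.6, ABF2 and ABF3, where 17.3% of all genes were called and 8.17% called higher. ABF2 was 2.02-fold higher in drought (1.01 on the log2 scale, SE 0.126, limma adjusted p = 3.26e-05), with an interval of 1.68 to 2.43. ABF3 was higher by 0.81 (SE 0.167, limma adjusted p = 0.00181) and SnRK2.6 by 0.60 (SE 0.130, limma adjusted p = 0.00240). No drought array overlapped amiNaa10 for these 3 genes. SnRK2.6 lay near the minimum fold, and its change was 0.49 without amiNaa10 replicate 2, 0.58 without drought replicate 4, 0.57 after cyclic loess normalization and 0.53 with array weights, none of which was called. Of the 6 guard cell markers, GORK (1.14) and SLAC1 (1.57) were called higher in drought than in amiNaa10. In this comparison 4 of the 6 lay above 0, with a median of 0.28. ABF1 was higher by 0.53 (limma adjusted p = 0.0269), under the minimum fold, and passed it without amiNaa10 replicate 2 (0.64) or replicate 3 (0.61).

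Set against the arrays labelled amiNaa15, the same 3 genes were called higher in drought, where 13.7% of all genes were called and 6.57% called higher. ABF2 was higher by 0.93 (SE 0.126, limma adjusted p = 9.88e-05), ABF3 by 0.72 (SE 0.167, limma adjusted p = 0.00564) and SnRK2.6 by 0.63 (SE 0.130, limma adjusted p = 0.00235). For ABF3, the lowest drought array (5.97) lay below the highest array labelled amiNaa15 (6.00). Without replicate 1 of that label, ABF2 was the only one of the 9 genes called. Without replicates 1 and 2, ABF2 (0.98) and ABF3 (0.68) were called and SnRK2.6 was not (0.45, limma adjusted p = 0.0630). Over all 4 arrays of that label, GORK (0.81) and SLAC1 (1.46) were the 2 of 6 guard cell markers called higher in drought. Of the 6, 5 lay above 0, with a median of 0.25. Without replicates 3 and 4, ABI5 was called as well (0.93, limma adjusted p = 0.0110), whereas over all 4 arrays it did not pass (0.60, limma adjusted p = 0.0621).

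SnRK2.2 and SnRK2.3 did not differ between drought and either mutant beyond the test. For SnRK2.3 the difference from amiNaa10 was 0.20 (95% interval -0.04 to 0.44, limma adjusted p = 0.213) and from the arrays labelled amiNaa15 -0.07 (95% interval -0.31 to 0.17, limma adjusted p = 0.718). For SnRK2.2 these differences were 0.12 (95% interval -0.08 to 0.33) and -0.17 (95% interval -0.37 to 0.03). The intervals reach 1.36-fold for SnRK2.3 against amiNaa10 and do not show that the levels were alike. SnRK2.10 and ABF4 differed from either mutant by -0.10 to 0.11.

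**Figure D3:**
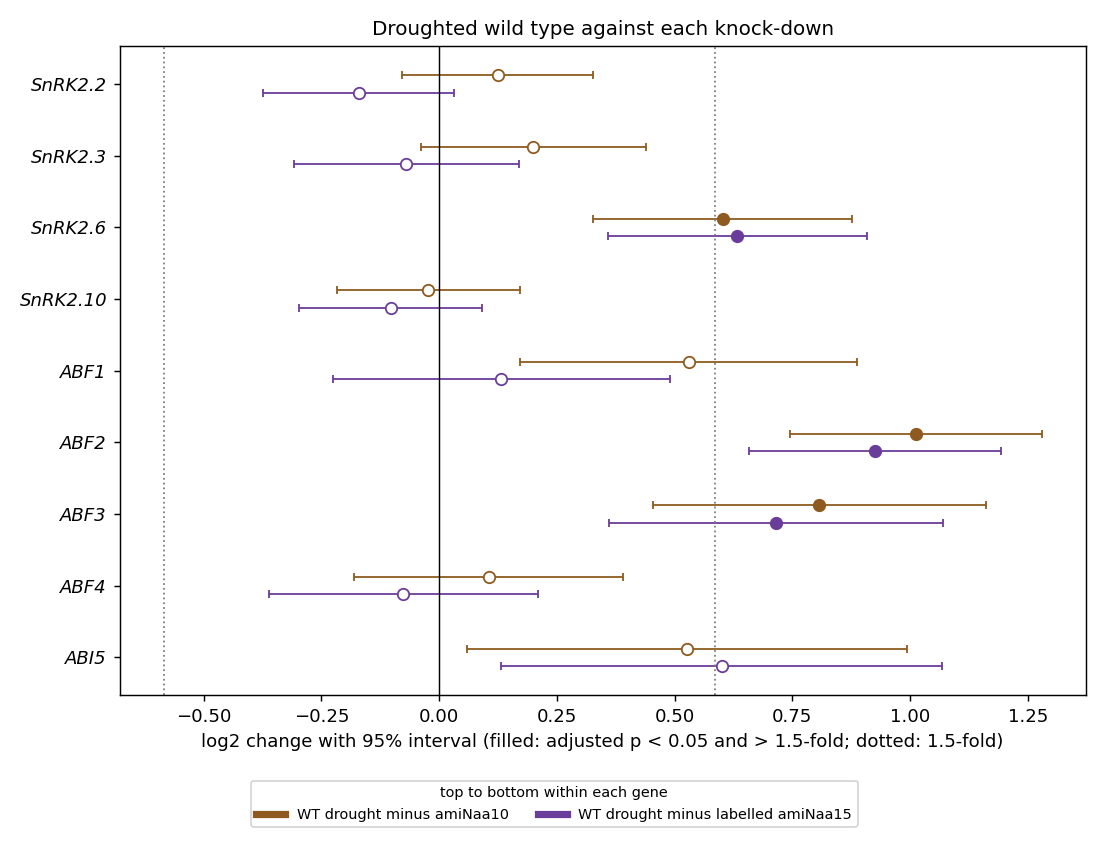
Log2 difference (x axis) with 95% interval of each gene (y axis) between droughted wild type and amiNaa10 or the arrays labelled amiNaa15. SnRK2.6, ABF2 and ABF3 lie beyond the dotted 1.5-fold line in both comparisons, and SnRK2.2, SnRK2.3, SnRK2.10 and ABF4 have intervals that include 0.

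Between amiNaa10 and the arrays labelled amiNaa15, limma called 0 of 9 genes and 0% of all genes. At an unadjusted p below 0.05 with the minimum fold it called 1.29% of all genes and 0 of the 9. At that p and any fold, 3 of 9 genes had lower signals in amiNaa10, beside 3.82% of all genes, namely SnRK2.2 (-0.29), SnRK2.3 (-0.27) and ABF1 (-0.40), with limma adjusted p values of 0.572, 0.686 and 0.692. Without replicates 1 and 2 of the label amiNaa15 these differences were -0.30, -0.28 and -0.57, and without replicates 3 and 4 they were -0.29, -0.26 and -0.23, none with an adjusted p below 0.05. For SnRK2.2 and SnRK2.3 no amiNaa10 array overlapped an array labelled amiNaa15.

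Ordered by mean, the groups fell into different patterns for different genes. For SnRK2.2 and SnRK2.3 the order from high to low was arrays labelled amiNaa15, drought, amiNaa10 and control, and only the last step lacked overlap between neighbours. For ABF2 it was drought, control, arrays labelled amiNaa15 and amiNaa10, with no overlap at the first and the second step. SnRK2.6 and ABF3 had drought first and the control second, with no overlap at that step only. In ABF1, ABF4, ABI5 and SnRK2.10 every pair of neighbours in the order overlapped.

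**Figure D4:**
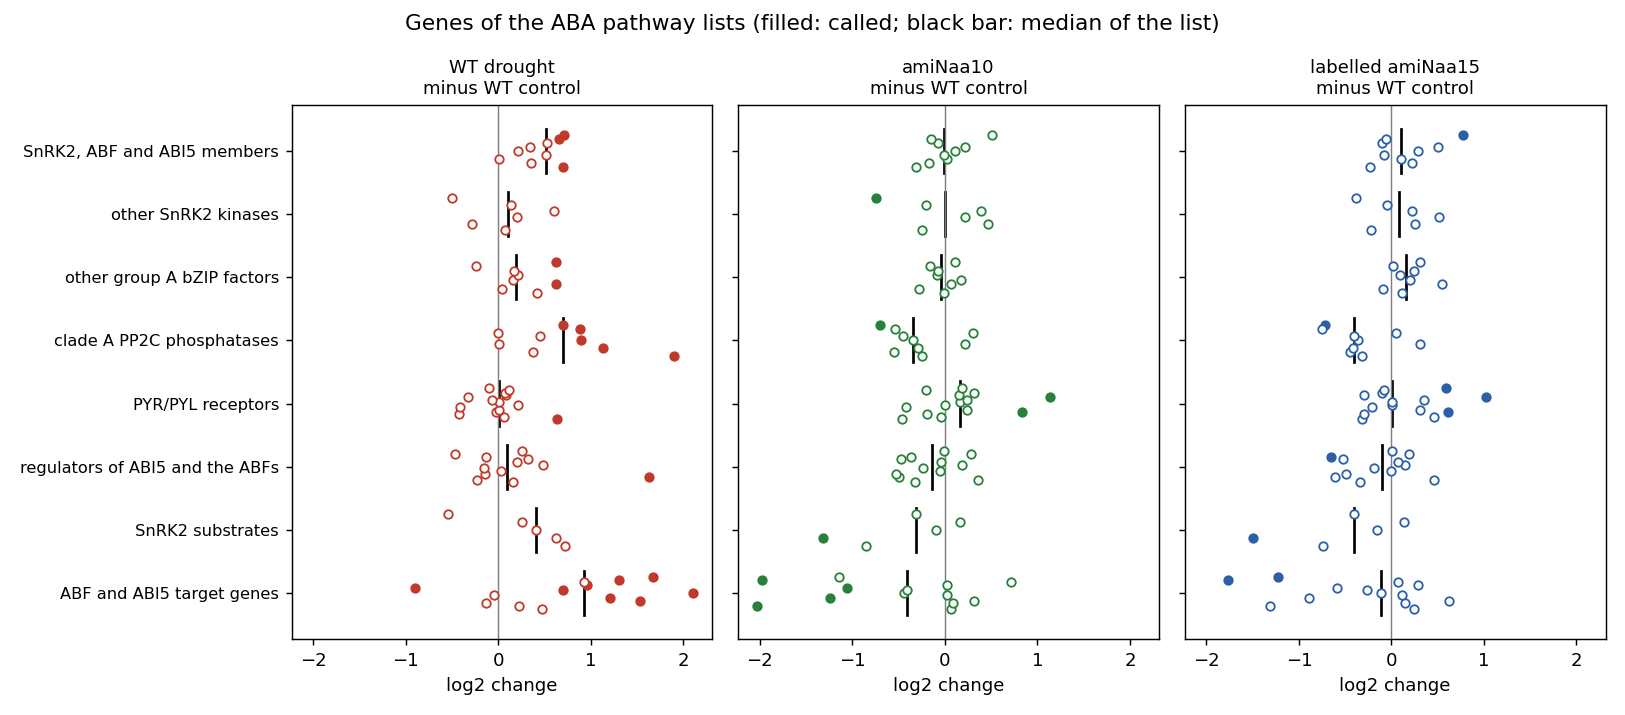
Log2 change (x axis) of each gene (points, filled where called) of the 9 SnRK2, ABF and ABI5 genes and of 7 lists of pathway genes (y axis) in drought, amiNaa10 and the arrays labelled amiNaa15, each against watered wild type, with the median of each list (black bar). The clade A PP2C and target gene lists have medians of 0.70 and 0.93 in drought and below 0 in both mutants.

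The rest of the pathway was described with 7 lists, each set against the control, beside the shares of all genes called above. Some genes of these lists had low signals, such as EEL, SnRK2.9 and HAB1 with control means of 3.62, 3.59 and 3.36. Of all genes, 9746 had a mean below 4. Whether such signals exceed background was not tested. For such genes the lack of a call does not show an unchanged transcript. Of the 6 other SnRK2 kinases 1 was called against the control, SnRK2.5, which was lower in amiNaa10 (-0.74, limma adjusted p = 0.0325), and none in drought or with the label amiNaa15. In the direct comparison of drought with amiNaa10, SnRK2.8 was the 1 called, and it was lower in drought (-0.74, limma adjusted p = 0.0123). Of the 8 other bZIP factors of group A, to which the ABFs and ABI5 belong, 2 were called higher in drought, bZIP13 (0.62) and EEL (0.63), and none in either mutant. The 14 PYR/PYL receptors had 1 called higher in drought, PYL9 (0.64), 2 in amiNaa10, PYL4 (0.84) and PYL5 (1.13), and 3 on the arrays labelled amiNaa15, PYL4 (0.61), PYL5 (1.02) and PYL8 (0.59). None of the receptors was called lower in these comparisons.

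Of the 9 clade A PP2C genes, whose products hold the kinases inactive, 5 were called higher in drought and none lower, with HAI2 at 1.89, HAB1 at 1.13, PP2CA at 0.89, ABI2 at 0.88 and HAI1 at 0.70, and with a median of 0.70. In each mutant group 1 was called lower, HAI1 both times (-0.70 in amiNaa10, -0.71 on the arrays labelled amiNaa15), and the median changes were -0.34 in amiNaa10 and -0.40 with the label amiNaa15. Among 12 regulators of ABI5 and the ABFs, AFP1, which encodes an ABI5-binding repressor, was called higher in drought (1.63). None of the 12 was called in amiNaa10, and CPK32, a calcium-dependent kinase that phosphorylates ABF4, was lower on the arrays labelled amiNaa15 (-0.65 at a limma adjusted p of 0.0460). Among 5 genes for SnRK2 substrates none was called in drought and AKS1, a guard cell bHLH factor, was called lower in both mutants (-1.32 in amiNaa10, -1.49 on the arrays labelled amiNaa15).

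Of 13 target genes of the ABFs and ABI5, 7 were called higher and 1 lower in drought, with a median change of 0.93. The homeodomain factor ATHB12 rose by 2.11, the dehydrin RAB18 by 1.67 and the bZIP factor GBF3 by 1.53, while the NAC factor RD26 fell by 0.90. In amiNaa10, 4 of the 13 were called lower and none higher, with a median of -0.41, the caleosin RD20 (-2.03), RD29A (-1.98), ATHB7 (-1.24) and RD26 (-1.06). On the arrays labelled amiNaa15, 2 were called lower and none higher, RD29A (-1.77) and RAB18 (-1.23), with a median of -0.12. RD29A was called higher in drought (1.30). The list also holds LEA7, the ABA marker that the study measured by quantitative PCR. Its mean signals were 1.97 in drought, 1.56 in amiNaa10, 1.73 with the label amiNaa15 and 1.49 in the control. The lowest signal of any gene was 0.66, and whether LEA7 exceeded background was not tested. By quantitative PCR the paper reports it strongly raised in the amiNaa10 line used here, which these signals do not show. These targets were collected from general knowledge of the pathway, and other factors act on them too.

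The calls in these lists on the arrays labelled amiNaa15 rested in part on the arrays in question. Over all 4 arrays 8 genes of the 7 lists were called (PYL4, PYL5, PYL8, HAI1, CPK32, AKS1, RD29A and RAB18). Without replicates 1 and 2, none of these 8 was called by limma (adjusted p of 0.0831 to 0.364), although all 8 kept their sign, for example RD29A at -1.44, AKS1 at -1.06 and PYL5 at 0.87, and 0.388% of all genes were called. Without replicates 3 and 4, where 7.36% of all genes were called, 7 of the 8 were called, all but CPK32, and so were 7 others. Among these others, ABI2 (-1.16), RD20 (-1.85) and SLAC1 (-1.35), listed here as a substrate of SnRK2.6, were lower. SnRK2.9 (0.74), another SnRK2 kinase, and EEL (0.62), another group A factor, were called higher. The median of the PP2C list was -0.23 without replicates 1 and 2 and -0.57 without replicates 3 and 4, and that of the target genes was -0.10 and -0.13.

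Over the 16 arrays, the genes whose signal followed SnRK2.3 most closely, among 6778 genes with a symbol and a mean log2 signal of at least 5, were BET10 (r = 0.93), SIS (0.93) and NRPB6A (0.90), a subunit gene of RNA polymerase. For ABF2 they were PAP18 (0.95), SR45a (0.95), a splicing factor gene, and EGY3 (0.94). For ABF3 they were UGE2 (0.92), ABCC8 (0.91) and CCT2 (0.91). These correlations include the differences between the 4 groups and share arrays and normalization, and are given as a description. With the group means taken out, the pairs of the 9 genes that varied most alike over the 16 arrays were SnRK2.3 with ABF4 (r = 0.77), SnRK2.3 with ABF3 (0.67), SnRK2.2 with SnRK2.3 (0.64) and ABF3 with ABF4 (0.63). Of 36 pairs 25 had r above 0, while SnRK2.10 had r below 0 with 7 of the 8 other genes, down to -0.62 with ABF4. The group means were those of the labels, so that the arrays in question and drought replicate 2 enter these values. The share of pairs above 0 among all genes was not counted, and these values are a description only.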

How the data were processed

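The authors deposited log2 signals per gene for 16 Affymetrix AraGene-1_0-st arrays. The methods name RMA for background correction, quantile normalization, and a custom chip annotation in version 16. The TAIR release behind it is not given in the sources used here, and no coordinates are given. Scanner files were not used here. Symbols come from the RefSeq table of TAIR10.1, in which 27241 of 27827 loci were found. Groups and replicate numbers are those of the labels, 4 arrays per group.

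On these deposited values limma 3.58.1 (R 4.3.3) fitted a mean for each group to every gene, with 12 residual degrees of freedom and a moderated spread, and p-values were adjusted after Benjamini-Hochberg in each of 6 comparisons. Called means more than 1.5-fold with an adjusted p under 0.05. The fit was tested on simulated data. The 9 genes, the 7 pathway lists and the marker lists were chosen with earlier results of these data known. All 9 genes are named, and up to 3 genes per list with the smallest adjusted p in a comparison. For the 3 genes called against the control, the 3 genes with the highest Pearson r over 16 arrays are named. Beyond this rule, some genes were named after their values were seen. They were the markers CAB1, GORK and SLAC1, the genes that complete a count of 5 or fewer (ABI2, HAI1 and RD26), and LEA7. In the lists without the arrays in question they were RD20, SLAC1, SnRK2.9 and EEL.

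The alternatives were no minimum fold and a 2-fold minimum, an unadjusted p, the replicate number as a block, only the 2 groups compared, no moderation, limma's treat, a table without its 25% of genes of lowest mean, cyclic loess, array weights, each array left out, and replicates 1 and 2 or 3 and 4 of the label amiNaa15 left out. This last one was extended to the pathway lists after seeing the data. matplotlib 3.10.9 drew the figures from tables read by pandas 2.3.3 under Python 3.11.15.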

Additional observations from a re-analysis of the deposited data

Results flagged for a closer look

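For each of the 9 genes the 4 arrays of each group were examined for 1 array far from the rest, in 36 groups. Dixon's ratio of gap to range passed its 95% critical value in 1 of these 36, and chance alone passes it in about 5% of groups. SnRK2.10 gave 7.95 on drought replicate 2, beside 7.74 to 7.78 on the other 3 drought arrays. On the same array 7 of the other 8 genes had their lowest drought signal.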

How the results depend on the processing

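The counts of called genes among the 9 depended on the fold. With no minimum fold they were 5 in drought, 1 in amiNaa10 and 2 with the label amiNaa15, each against the control. With a 2-fold minimum and with limma's treat they were 0 in drought and 0 with the label amiNaa15. They were 1 for drought against amiNaa10 (ABF2) and 0 for drought against the label amiNaa15. Of all genes, 1294, 440, 2119 and 1623 were called at 2-fold in that order, and 404, 23, 1147 and 702 with treat. With 1 array left out the counts of the 9 were 2 to 3 in drought, 0 in amiNaa10 and 1 with the label amiNaa15. They were 2 to 4 for drought against amiNaa10 and 1 to 4 for drought against the label amiNaa15 (1 without its replicate 1). Between the mutants they were 0. How many of all genes were called with 1 array left out is not given here. The labels do not say that the replicate numbers pair samples. Same-numbered arrays of 2 groups deviated together at r of -0.20 to 0.32. Arrays of different numbers were not set beside these values, so that whether the numbers pair samples was not tested. With the replicate block the counts of the 9 were 3, 0, 1, 3, 4 and 0, in the order of the left-out counts above. Of all genes, 3759, 1626, 1381, 4827, 3839 and 2 were called. ABI5 was added for drought against the label amiNaa15 (adjusted p = 0.0373 in limma), and no other call of the 9 genes changed. Signs turned only for changes that were not called. After cyclic loess SnRK2.10 changed by -0.0355 in drought and -0.0034 in amiNaa10. Without replicates 1 and 2 of the label amiNaa15, SnRK2.6 and ABI5 changed by 0.0737 and 0.25 there, ABF1 by -0.0376 for drought against that group, and SnRK2.6 and ABI5 by -0.15 and -0.26 for amiNaa10 against that group. With 1 array left out, SnRK2.10 ran from -0.0417 to 0.0648 in drought. In amiNaa10, ABI5 ran from -0.0999 to 0.12, SnRK2.6 from -0.13 to 0.0381, SnRK2.10 from -0.0181 to 0.0877 and ABF1 from -0.28 to 0.0034. With the label amiNaa15, ABF3 ran from -0.18 to 0.0905 and ABI5 from -0.28 to 0.0443. For drought against amiNaa10, SnRK2.10 ran from -0.0695 to 0.0173. For drought against the label amiNaa15, ABF4 ran from -0.15 to 0.0395 and SnRK2.3 from -0.13 to 0.0184. For amiNaa10 against the label amiNaa15, SnRK2.6 ran from -0.0355 to 0.14, ABI5 from -0.0391 to 0.28 and ABF3 from -0.24 to 0.0321. The number of arrays limits what can be resolved, most of all for ABI5, whose changes had an SE of 0.220. The cause of these dependences was not tested.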
